A study of Mus musculus with 36 samples.

Results

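Cells carrying the MSR-dCas9-Activator were compared with cells carrying the MSR-dCas9-Control at the end of doxycycline induction, in 3 libraries of each, 6 of the 36 libraries measured. The members were all gene and repeat rows of the count table that could be tested, 28542 of 54842 genes and 1461 of 1561 repeat families. Both lines are mouse embryonic fibroblasts (MEF) in which a nuclease-dead Cas9 (dCas9) is expressed from a doxycycline-inducible PiggyBac construct, together with a guide RNA to the major satellite repeats (MSR). In the MSR-dCas9-Activator line (Activator below) the dCas9 is fused to the VPR transcriptional activator, and in the MSR-dCas9-Control line (Control below) it has no effector. Both lines were kept in tet-free serum with hygromycin. They were induced with doxycycline at 10 ng/ml in medium without hygromycin, the Activator line for 6 h and the Control line for 24 h. The effector, the length of exposure to doxycycline and the time without hygromycin therefore cannot be told apart in any difference given here. The lines are hygromycin-selected transgenic cultures, so a difference may also have stood between them before induction, and the uninduced libraries of both lines, 3 of each, are given where they bear on a result. In bulk RNA, fewer cells expressing a transcript and less of it per cell cannot be told apart.

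MSR are tandem repeats that make up pericentric heterochromatin, the compact chromatin beside the centromeres of mouse chromosomes. In most cells this chromatin carries H3K9 and H4K20 methylation and HP1 proteins, and its repeats are transcribed at a low level. VPR joins 3 activation domains and recruits the transcription machinery to the site where dCas9 is bound.

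Total RNA, depleted of ribosomal RNA, was sequenced from each culture, and the values are read counts per gene and per repeat family. Counts on genes and repeat families ranged from 35092024 to 65241083 per library in Control (median 55023216) and from 47724807 to 68875383 in Activator (median 65429895). Mitochondrially encoded mRNAs held 1.74% to 2.56% of gene counts in Control and 2.27% to 2.82% in Activator, and the 10 highest genes of each library held 7.34% to 12.3% and 11.3% to 19.8%. The 12 fibroblast markers with a mean above 100 counts, such as Col1a1 and Vim, were abundant in both groups. By the limits given below, 2 of the 12 were called lower (16.7%) and 1 higher (8.33%), against 12.1% and 5.77% of all genes with such a mean. Their median log2 fold change was -0.15, and 4 went further down on induction in the Activator line than in the Control line. Values below are counts scaled with edgeR's TMM factors (normalised counts) unless stated, and fold changes are Activator over Control on the log2 scale, with p-values of edgeR's quasi-likelihood test adjusted after Benjamini and Hochberg over all genes or all families.

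Among well-expressed genes, more were lower than higher in Activator cells. A gene was called when its adjusted p was under 0.05, its fold change was above 2-fold (1 on the log2 scale) and its mean over all 36 libraries was above 100 normalised counts, a limit that 13582 genes passed. Of these, 784 were higher in Activator (5.77% of 13582, or 2.75% of all genes tested) and 1643 were lower (12.1%, or 5.76%), 2427 in all (17.9%, or 8.5%). The calls differed in size as well as number. Genes called higher had a median log2 fold change of 2.35, and 320 of them were above 3, whereas genes called lower had a median of -1.41, 289 were below -2 and only 21 were below -3. They also came from different levels of expression. Of the genes called higher, 49 averaged under 1 normalised count in Control, 127 between 1 and 10, and 391 between 10 and 100, and 15 were above 1000. Of the genes called lower, 932 averaged between 100 and 1000 in Control and 711 above 1000. Without the limit on the mean the balance turned, with 6313 genes higher and 3507 lower, since with it a gene low in Control passed it only through libraries where it was high, whereas a gene that fell from a low level could not pass. Under scaling to the mRNAs of the mitochondrial genome, 617 genes were higher and 2949 lower. The 3 Activator values lay on one side of the 3 Control values for 768 of the 784 genes called higher and 1626 of the 1643 called lower. Over all 13582 genes the share was 61.4%. Since the calls were made on these same libraries, this separation follows largely from the limits of a call and is no separate support.

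The 3 Activator replicates did not depart from Control to the same degree. Over the genes called higher, the median difference from the Control mean, as log2 of the normalised count plus 1, was 2.48 in replicate 1, 1.91 in replicate 2 and 2.64 in replicate 3. Over the genes called lower it was -1.65, -0.98 and -1.67. Replicate 2 was the Activator library nearest to Control in 88.8% of the genes called higher and in 92.1% of those called lower, and replicate 3 was the farthest in 77.0% and 58.4%. Leaving out replicate 2 gave 836 genes higher and 1934 lower, and leaving out replicate 3 gave 738 higher and 1476 lower.

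Satellite transcripts had the largest difference of any repeat family. GSAT_MM, the RepeatMasker family of the major satellite, held 1381, 1345 and 1428 normalised counts in Control replicates 1, 2 and 3 and 157052, 100895 and 1102780.0 in Activator replicates 1, 2 and 3. All Activator libraries were above all Control libraries, but they differed 10.9-fold among themselves, with replicate 3 far above the others. SYNREP_MM, the minor satellite family of the centromere itself, held 55.4, 83.6 and 83.7 in Control and 23020.1, 14605 and 22277 in Activator, where the highest replicate was 1.58 times the lowest. The order of the replicates thus differed between the 2 families, since replicate 3 stood apart in GSAT_MM and not in SYNREP_MM. Before induction GSAT_MM stood at 4246, 2229.6 and 3882 in the Activator line against 1558, 1430.4 and 1443 in the Control line, with every Activator library above every Control library, although the difference was not called. SYNREP_MM already stood at 688, 394 and 435 in the Activator line against 60.4, 69.5 and 72.5 in the Control line.

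**Figure D1:**
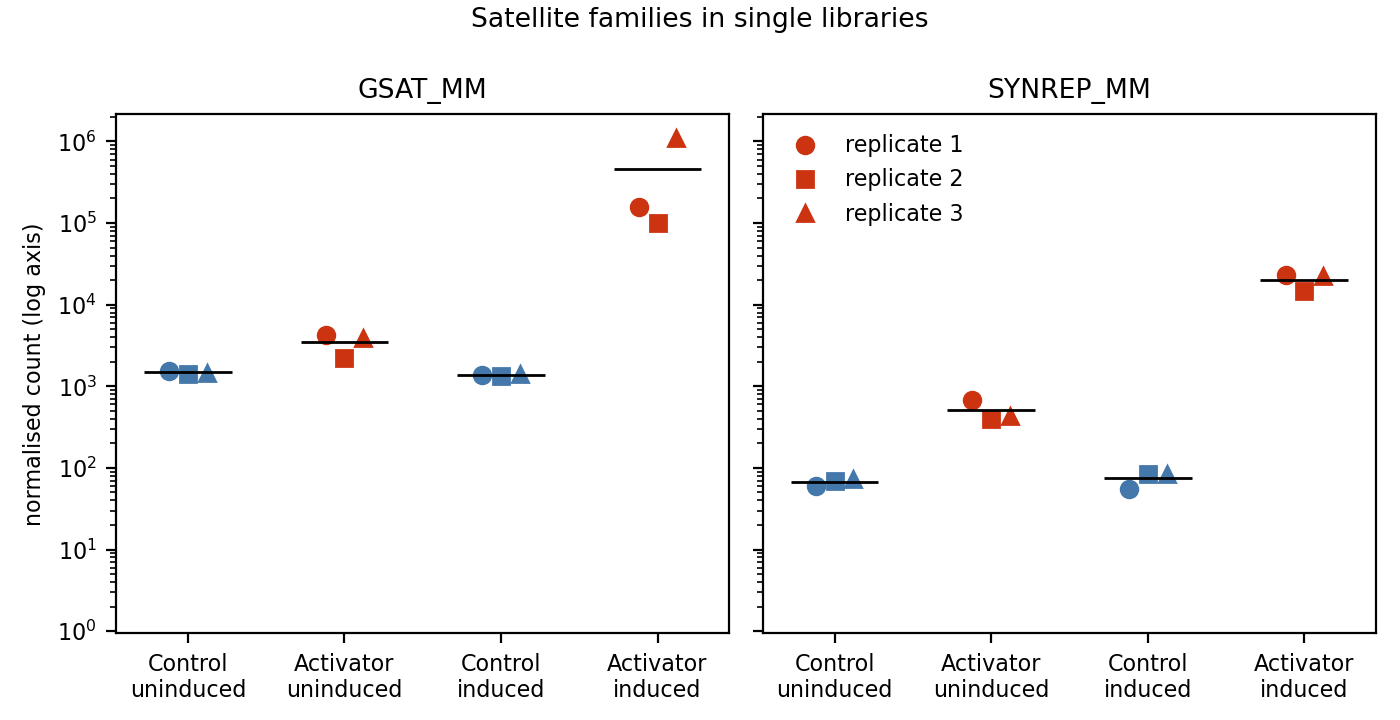
Normalised counts (log axis) of GSAT_MM and SYNREP_MM in each of the 3 libraries of the uninduced and induced groups, with the group mean as a line. The induced Activator libraries were above all others in both families, and replicate 3 was separate from the other Activator libraries in GSAT_MM alone.

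Most other satellite families did not share this rise. MMSAT4 held 11611, 11991 and 11131 normalised counts in Control and 4781, 6549 and 4973 in Activator, a fall in every library (log2 fold change -1.09, SE 0.16, adjusted p = 6.85e-10). ZP3AR was lower in Activator at 3427, 3372 and 3435 against 4576, 5652 and 5704 (log2 fold change -0.64), and SUBTEL_sa was lower by a log2 fold change of -0.77. MurSAT1 was called higher (log2 fold change 2.56) from few counts, 0, 1.97 and 7.90 in Control and 16.2, 10.1 and 19.7 in Activator. IMPB_01 overlapped between the groups and was not called (adjusted p = 0.154).

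A small set of annotated genes holds satellite sequence and rose with it.
At the centromeric end of chromosome 9, within chr9:3000282-3038316 (GRCm38), 9 annotated genes were all called higher, among them Gm10718, a protein-coding gene model at chr9:3023547-3025218.
The first 234 bases of its GENCODE M21 transcript are shown because 234 bases is the spacing at which this transcript matched itself best.
Gm10718: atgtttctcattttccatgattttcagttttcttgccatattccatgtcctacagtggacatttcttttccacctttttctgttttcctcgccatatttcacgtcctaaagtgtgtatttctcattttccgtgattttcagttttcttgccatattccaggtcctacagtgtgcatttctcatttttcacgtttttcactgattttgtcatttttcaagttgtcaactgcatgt
Of 141767 transcripts searched, those of 13 genes shared a stretch of 25 bases with the transcripts of this stretch of chromosome 9: the 9 genes themselves, their neighbour Gm10720, Gm21738 on chromosome 14, and Gm10800 and Gm10801 on chromosome 2.
Of the 13 genes, 12 were called higher and Gm10720 had a mean under 100. The 9 genes of the stretch were taken for the search because they were called higher. Only the calls of the 4 genes outside them were free to differ.
Together the 13 genes held 296, 187 and 136 counts in the Control libraries, or 0.000438% to 0.000557% of gene counts. In the Activator libraries they held 141314, 67085 and 1045241, or 0.273%, 0.173% and 1.94%.
Replicate 3 was again the highest by far, as in GSAT_MM.
Gm10718 held 6.24, 1.90 and 4.59 normalised counts in Control and 2319, 1534 and 14672 in Activator, and Gm10800, the most abundant, held 114, 98.8 and 106 and 78741, 50422 and 648357.
Gm10800 and Gm10801 were higher in the Activator line before induction as well, at 1411, 443 and 1238 normalised counts of Gm10800 against 108, 136 and 161.
Reads of near-identical copies can be split among these genes and GSAT_MM, so the value of any single one is uncertain.
The other 772 genes called higher shared no such stretch.

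The largest rises among protein-coding genes were of genes without a single read in the Control libraries. In 26 genes called higher the 3 Control libraries held 0 counts, and in 31 more they held 1 to 3 counts together. Ikzf1, which encodes the lymphoid transcription factor Ikaros, held 796, 204 and 914 normalised counts in Activator replicates 1, 2 and 3, at least 636-fold higher than Control (3 counts over the Control group as the floor). Csnka2ip held 642, 379.8 and 735 (at least 583-fold higher). The odorant receptor genes Olfr859 and Olfr1443 held 373, 153 and 502 and 317, 118 and 421 (at least 341-fold and 284-fold higher), and the odorant receptor pseudogene Olfr548-ps1 held 573, 154 and 644 (at least 455-fold higher). Replicate 2 was the lowest Activator library in each of these genes. Pde7b, a phosphodiesterase that breaks down cyclic AMP, held 1 count in the Control libraries and 1411, 431 and 1727 normalised counts in Activator, a 3555-fold ratio whose 95% counting interval ran from 638 to 140402. Among noncoding genes Gm3942 held 386, 184 and 542 (at least 369-fold higher), Gm12171 182, 64.9 and 194 and Gm43175 149, 63.8 and 147, all with 0 in Control. Creg2, which encodes a secreted glycoprotein, was also at 0 in Control and at 308, 485 and 311 in Activator, but it stood at 627, 655 and 556 in the uninduced Activator line, so its difference was there before induction.

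One group of such genes lay side by side.
On chromosome 19, chr19:12599974-12719902, 5 neighbouring genes of 8 tested were called higher, and 4 of them had 0 counts in Control. Only these 5 had a mean above 100, a limit that genes at 0 in Control could pass only through libraries where they were high.
They are Gm4952, Glyat (the mitochondrial enzyme glycine N-acyltransferase, at chr19:12633308-12653911), Olfr1442, Olfr1443 and Keg1 (chr19:12695786-12719902).
Glyat held 641, 274 and 777 normalised counts in Activator (at least 562-fold higher) and Keg1 349, 127 and 496 (at least 323-fold higher).
The RefSeq promoters of Glyat (chr19:12633058-12633357) and Keg1 (chr19:12695540-12695839), 250 bases before to 50 after the start on the plus strand of GRCm38.p6, are shown with each CG pair in capitals because promoters of this stretch are poor in CG.
Glyat promoter: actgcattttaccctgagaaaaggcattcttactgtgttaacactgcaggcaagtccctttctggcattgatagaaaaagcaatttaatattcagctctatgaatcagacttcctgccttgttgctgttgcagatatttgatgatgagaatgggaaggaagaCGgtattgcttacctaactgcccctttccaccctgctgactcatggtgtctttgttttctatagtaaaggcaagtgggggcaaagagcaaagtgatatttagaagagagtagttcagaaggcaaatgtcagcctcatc
Keg1 promoter: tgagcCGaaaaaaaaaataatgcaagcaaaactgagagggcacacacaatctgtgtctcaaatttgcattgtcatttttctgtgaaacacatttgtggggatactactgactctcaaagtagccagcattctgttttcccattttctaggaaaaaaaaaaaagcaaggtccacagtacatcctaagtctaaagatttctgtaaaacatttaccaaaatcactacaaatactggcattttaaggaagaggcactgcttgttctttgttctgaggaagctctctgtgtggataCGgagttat
Glyat's window holds 1 CG pair and Keg1's holds 2, that of Gm4952 holds 1 and that of Olfr1443 holds 2.
Over 32851 RefSeq promoters of the same length the median was 7 (quartiles 3 and 20), and 94.6% held at least 1.
The RefSeq window listed for Olfr1442 starts 3740 bases from the annotated start of the gene in the table used here, and it was left aside.

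Across the genome, 33 groups of 3 or more genes called higher lay within 100 kb of each other and held 130 of the 784 genes, 93 pairs lay as close, and 468 genes had no such neighbour. The same count was not made for all genes or for genes called lower. These numbers therefore do not show closer spacing than that of other genes. The chromosome 9 stretch and a stretch of chromosome 8, chr8:105312265-105698187, were the longest with 9 genes each. On chromosome 8 the members are not satellite genes. Hsd11b2, which inactivates glucocorticoids in kidney, averaged 57.1 normalised counts in Control and 590.1 in Activator (log2 fold change 3.37), Tppp3 44.4 normalised counts in Control and 356 in Activator (log2 fold change 2.98), and Atp6v0d1, a subunit of the vacuolar proton pump, 2588 normalised counts in Control and 5275 in Activator (log2 fold change 1.03). In that stretch 17 genes had a mean above 100, of which 2 were called lower. These neighbours were picked after their values were seen, and overlapping or read-through transcripts were not told apart.

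**Figure D2:**
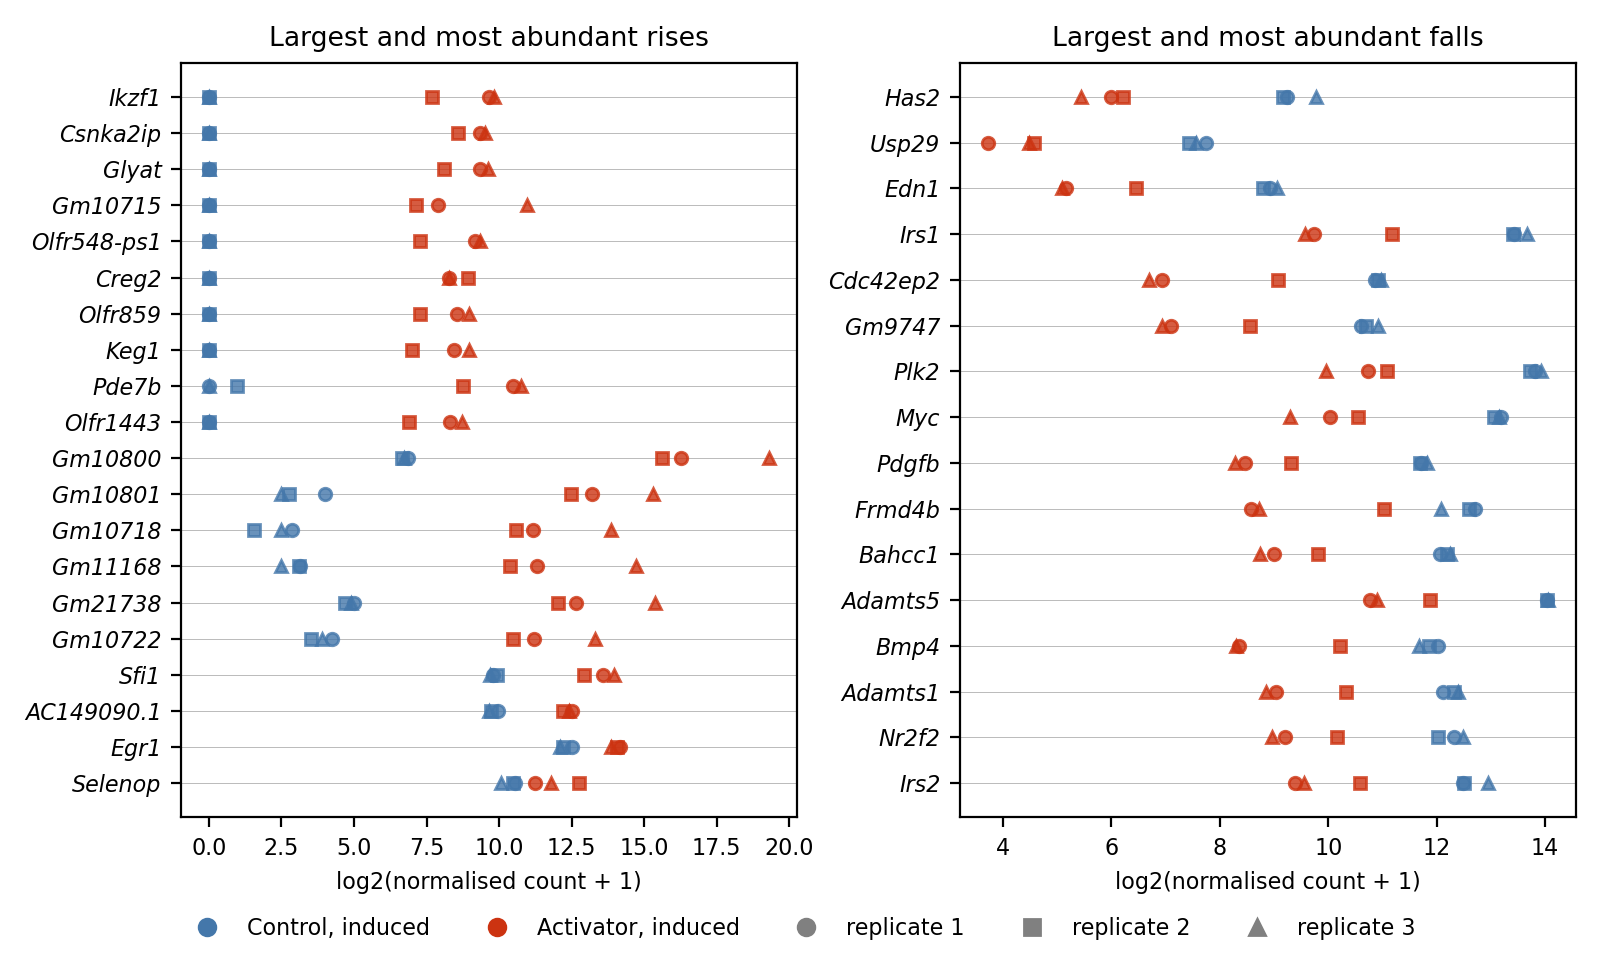
Each of the 3 Control (blue) and 3 Activator (red) induced libraries for the protein-coding genes with the largest fitted rises and falls and for the most abundant such genes, as log2 of the normalised count plus 1. Only genes whose groups were separate could be shown. Replicate 2 (squares) was the Activator library nearest to Control in most of those shown.

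Few abundant genes were higher. Of the 10 largest rises among protein-coding genes averaging at least 2000 normalised counts in the 6 induced libraries, 6 were of genes holding satellite sequence, and the others were Sfi1, AC149090.1, Egr1 and Selenop. Sfi1, which encodes a centrin-binding protein of the centrosome, held 889, 980.0 and 823 normalised counts in Control and 12392, 7841 and 15838 in Activator (log2 fold change 3.73, SE 0.25, adjusted p = 1.55e-11). AC149090.1 held 991, 837 and 812 and 5796, 4743 and 5445 (log2 fold change 2.60, SE 0.22, adjusted p = 5.06e-10). Sfi1 and its neighbour Pisd-ps1 lie in chr11:3125904-3196824, where 5 of 7 genes with a mean above 100 were higher, and both they and AC149090.1 have near-identical copies elsewhere, so their counts are uncertain. Egr1, an immediate early transcription factor, held 5806, 4709 and 4407 in Control and 18184, 16985 and 14796 in Activator (log2 fold change 1.74, SE 0.21, adjusted p = 1.50e-07). Its replicates lay closer to each other than in most genes called higher. Selenop, the selenium carrier selenoprotein P, held 1482, 1413 and 1081 in Control and 2428, 6841 and 3563 in Activator (log2 fold change 1.57, SE 0.37, adjusted p = 9.54e-04). Within each line the uninduced libraries of Selenop were higher than the induced ones, at 7255, 5919.9 and 3543 in Control and 7249, 11109 and 10016 in Activator, and its change on induction did not pass the test of a difference between the lines (adjusted p = 0.226).

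Has2, which makes hyaluronan, had the largest fall of a protein-coding gene, from 600.2, 571 and 876 normalised counts in Control to 62.5, 73.6 and 42.3 in Activator (log2 fold change -3.50, SE 0.33, adjusted p = 3.28e-09). Edn1, the peptide endothelin 1, held 486, 442 and 531 and 34.9, 86.6 and 33.0 (log2 fold change -3.36, SE 0.43, adjusted p = 4.52e-07). Myc, the growth-promoting transcription factor, held 9347, 8554 and 9149 and 1049, 1501 and 623 (log2 fold change -3.11, SE 0.26, adjusted p = 4.25e-10). Genes were named among the largest falls only if their groups did not overlap. The Control replicates lay close together in Edn1 and Myc but spread more in Has2. Plk2, a polo-like kinase and p53 target, was lower to a like degree, at 1703, 2168 and 991 against 14351, 13489 and 15474 (log2 fold change -3.16, SE 0.25, adjusted p = 1.89e-10). Both main adaptors of the insulin and IGF1 receptors were lower. Irs1 held 11045, 10882 and 12974 in Control and 855, 2315 and 763 in Activator (log2 fold change -3.34, SE 0.55), and Irs2 held 5732, 5812 and 7940.2 and 667, 1538 and 753 (log2 fold change -2.75, SE 0.33). In Irs1 Activator replicate 2 held about 3 times the counts of the other Activator replicates, though still far under Control. Gm9747, which overlaps Irs1, moved with it (log2 fold change -3.17), and reads of the pair may not be told apart. Adamts1 and Adamts5, proteases that cut aggrecan, had log2 fold changes of -2.82 (SE 0.32) and -2.86 (SE 0.42), with Adamts5 at 16771, 16741 and 17017 in Control and 1751, 3773 and 1908 in Activator. Cdc42ep2, an effector of the small GTPase Cdc42, and Bahcc1 had log2 fold changes of -3.17 and -2.96, and Frmd4b went from 6659, 6216 and 4336 in Control to 381, 2087 and 420.1 in Activator.

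Usp29, a deubiquitinase gene expressed from the paternal allele, was lower at 12.2, 22.7 and 21.2 against 214, 172 and 188 (log2 fold change -3.37, SE 0.24, adjusted p = 7.31e-12), but it was lower before induction too, at 48.2, 36.5 and 30.9 in the Activator line and 243, 222 and 199.8 in the Control line. Among noncoding genes the largest falls were of Gm28119, at 389, 484 and 548 and 29.2, 73.6 and 14.4 (log2 fold change -3.72), of Gm42680 (log2 fold change -3.30) and of 3110039I08Rik, at 12261, 13534 and 17531 and 1396, 2235 and 1148 (log2 fold change -3.24). Gm28119 lies inside 3110039I08Rik, so these 2 may share reads.

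Gene lists written by hand were set beside the background of 12.1% lower and 5.77% higher among genes with a mean above 100, with no test of a list as a whole. For some lists the members with an adjusted p under 0.05 at any size are counted too. The share of all genes at that limit was not counted. By edgeR, 8718 of the 13582 genes with a mean above 100 had an unadjusted p under 0.05, so such counts do not by themselves set a list apart. For each list the members with the largest called rise and fall are named by rule, and further members were picked as examples after their values were seen. In the list of mesenchymal transcription factors 19 of 28 members were lower and 0 higher, with a median log2 fold change of -1.31, which is the largest share of any list with over 2 members. Osr1 held 1409, 1269 and 1406 normalised counts in Control and 123, 330.0 and 148 in Activator (log2 fold change -2.87, SE 0.39, adjusted p = 1.23e-06), and Nr2f2 (COUP-TFII) held 5113, 4177 and 5748 and 584, 1139 and 499.7 (log2 fold change -2.82). Both were far apart between groups in every replicate. Runx2 averaged 3926 ± 313 in Control and 1004 ± 260.4 in Activator (SD, n = 3), and Snai2 averaged 1047 ± 114 in Control and 265 ± 157 in Activator. Of the Hox genes, which set position along the body axis, 5 of 11 were called lower, and all 11 had an adjusted p under 0.05 and a value below 0, with 9 called without Activator replicate 2 and 8 without Control replicate 2. Hoxa3 was furthest at 289, 326 and 291 in Control and 74.7, 184 and 67.8 in Activator (log2 fold change -1.56).

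Immediate early genes went both ways, with 13 of 32 lower, 4 higher and a median of -0.88. Myc and Fosl2 (log2 fold change -2.70), an AP-1 subunit, led the falls, and Dusp4 and Dusp6, phosphatases of the ERK pathway, had log2 fold changes of -2.69 and -2.35. The 4 higher members were Arc, Egr1, Egr2 and Nr4a2. Arc, a synaptic capsid-like protein, held 7.02, 8.55 and 3.06 in Control and 257, 129.8 and 362 in Activator (log2 fold change 5.16, SE 0.39, adjusted p = 1.29e-11). Egr1 was thus higher while Myc, Klf4 (log2 fold change -2.26) and Fosl2 were lower in the same libraries.

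Ligands and receptors were lower more often than higher. In TGF-beta and BMP signalling 13 of 30 were lower and 0 higher (median -0.61). Of the ligands, Bmp4 held 4185, 3719 and 3249 in Control and 325, 1187 and 314 in Activator (log2 fold change -2.83, SE 0.44, adjusted p = 1.03e-05), Inhba had a log2 fold change of -2.04 and Tgfb2 of -1.50. Of the receptors and Smads, Tgfbr2 had -1.36 and Smad3 -2.08, and the target Id1 had -1.94, all as log2 fold changes. Among receptor tyrosine kinases and their ligands 8 of 30 were lower and 0 higher (median -0.62), with the ligand Pdgfb at 3352, 3319.9 and 3640.5 and 351, 638 and 308 (log2 fold change -3.06, SE 0.41, adjusted p = 1.20e-06) and its receptor Pdgfrb at 5774, 5562 and 4291 and 1105, 3259 and 1443 (log2 fold change -1.57). Among Wnt ligands, receptors and targets 4 of 21 were lower and 3 higher (median -0.51). The 4 lower members were the receptors Fzd2 (log2 fold change -2.28), Fzd4, Fzd5 and Fzd7, and the 3 higher were the ligands Wnt2b (log2 fold change 2.42) and Wnt11 and the secreted antagonist Sfrp1. Sfrp1 was called higher before induction as well (log2 fold change 1.38), and of these 3 only Wnt2b was called in the test of the change on induction between the lines. Of NF-kappaB cytokines and regulators 8 of 17 were lower and 1 higher (median -0.55). Csf1, the macrophage growth factor, held 31692, 30528 and 38916 in Control and 5396, 6376 and 4590.1 in Activator (log2 fold change -2.63, SE 0.30, adjusted p = 1.03e-07), and Ccl2 and Cxcl1 had log2 fold changes of -2.19 and -2.32. Il6 was the member that was higher, at 206, 168 and 189 against 46.8, 35.1 and 35.2 (log2 fold change 2.25, SE 0.22, adjusted p = 1.22e-09). Of actin, SRF and YAP targets 5 of 25 were lower and 1 higher (median -0.22), led by Amotl2 (log2 fold change -2.01) and Ccn2 (-1.89), while Tagln was higher (log2 fold change 1.47).

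**Figure D3:**
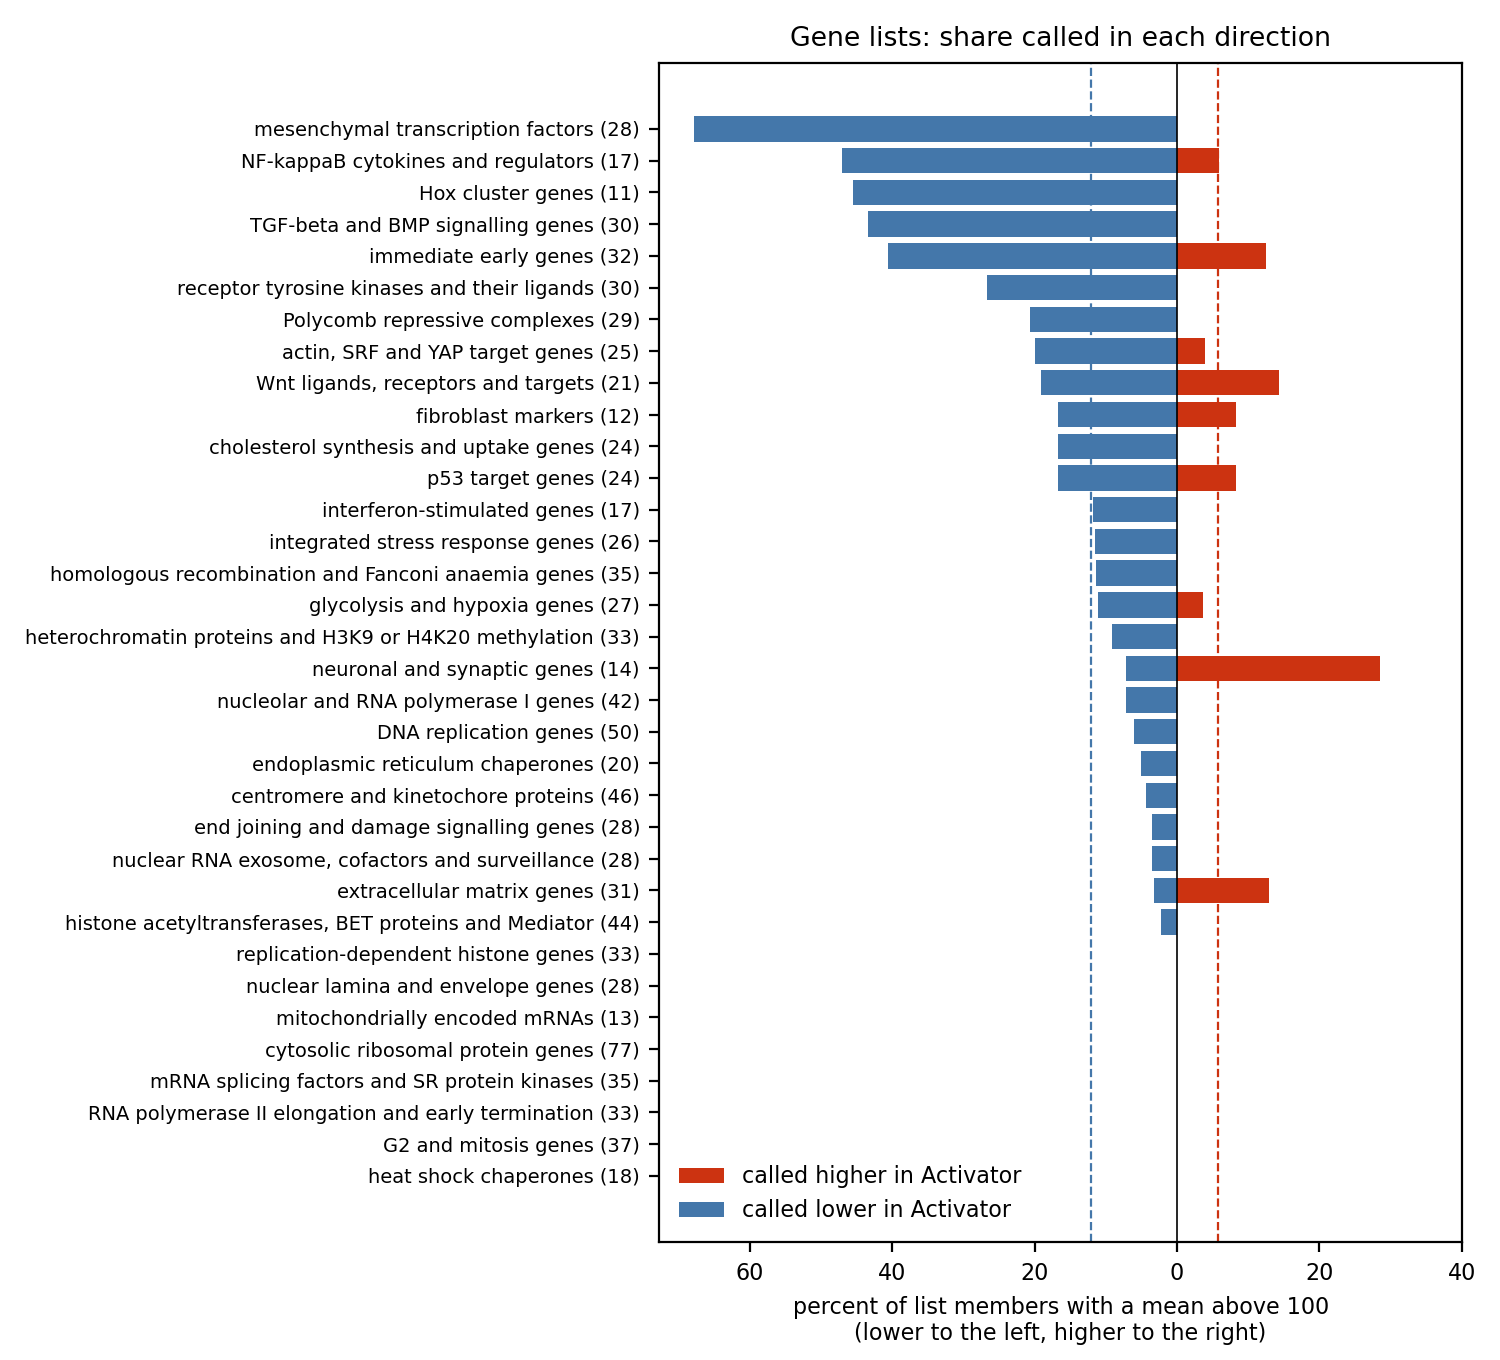
Share of the members of each gene list with a mean above 100 (their number in parentheses) that were called lower (blue, to the left) or higher (red, to the right) in Activator, with dashed lines at the share of all 13582 genes, 12.1% and 5.77%. Of the lists shown, which have at least 10 such members, mesenchymal transcription factors had the largest share lower, and 8 lists, from heat shock chaperones to replication-dependent histones, had no member called.

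Among chromatin factors the Polycomb list had a larger share lower than the background of 12.1%, and the others a smaller one. Of the Polycomb genes 6 of 29 were lower and 0 higher (median -0.41), and Cbx2, Cbx6 and Cbx7, which encode readers of H3K27 methylation, were among the 6. Cbx2 held 765, 753 and 760.2 in Control and 149, 463 and 158 in Activator (log2 fold change -1.71, SE 0.38, adjusted p = 4.54e-04), and replicate 2 lay between the Control level and the other Activator libraries. Of heterochromatin proteins and H3K9 or H4K20 methyltransferases 3 of 33 were lower and 0 higher (median -0.18). These were Dnmt3b, a DNA methyltransferase, at 430.0, 419 and 385 and 118, 196 and 94.0 (log2 fold change -1.64, SE 0.21, adjusted p = 2.05e-07), Kmt5c, which writes H4K20 trimethylation (log2 fold change -1.53), and Hmga2 (-1.38). Among histone acetyltransferases, BET proteins and Mediator, Med22 was the only one of 44 called, at 2579, 2837 and 2922 and 812, 991 and 745 (log2 fold change -1.71). Of 28 nuclear lamina and envelope genes 0 were called, although 11 had an adjusted p under 0.05 from edgeR at smaller fold changes.

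Repair, replication and division genes changed little in size. In homologous recombination and Fanconi anaemia genes 4 of 35 were lower, namely Brca1, Xrcc2, Xrcc3 and Fancb, with a median of -0.32. At any size, 20 of 35 were lower with an adjusted p under 0.05, a count with no share of all genes beside it. Brca1 held 4313, 4169 and 4052 in Control and 1807, 1979 and 1611 in Activator (log2 fold change -1.22, SE 0.08, adjusted p = 3.22e-12), close values within each group. Mdc1, which binds phosphorylated H2AX at DNA breaks, was the only one of 28 end joining and damage signalling genes called, at 11344, 9302 and 9130.2 and 4644, 5168 and 4282 (log2 fold change -1.08). Of 50 DNA replication genes 3 were lower, Orc5, Gins3 and E2f2, and of 46 centromere and kinetochore genes 2, Knl1 and Sgo2a (log2 fold change -1.19), which guards centromeric cohesion. Of 37 G2 and mitosis genes and 33 replication-dependent histone genes 0 were called, with adjusted p under 0.05 for 21 and 9 of them by edgeR. Among p53 targets 4 of 24 were lower and 2 higher (median -0.42). The long noncoding RNA Trp53cor1 (lincRNA-p21) held 21.9, 24.7 and 26.0 in Control and 1096, 382 and 1262 in Activator (log2 fold change 5.17, SE 0.34, adjusted p = 4.60e-12), whereas Plk2, Phlda3, Bbc3 and Pidd1 were lower.

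Stress and interferon genes stayed near the background or under it. Of 17 interferon-stimulated genes 2 were lower and 0 higher, with Irf1 at 1660.0, 1599 and 1432 and 378, 822 and 375 (log2 fold change -1.66). Of 26 integrated stress response genes 3 were lower, led by Chac1 (log2 fold change -1.93), of 20 endoplasmic reticulum chaperone genes only Xbp1 was lower (-1.21), and of 18 heat shock chaperones 0 were called, with 5 at an adjusted p under 0.05 from edgeR. In cholesterol synthesis and uptake 4 of 24 were lower (median -0.46), among them Insig1, at 4756, 5289 and 5930.3 and 916, 4539 and 1312 (log2 fold change -1.60, adjusted p = 0.00843), where Activator replicate 2 stood close to Control. The call of Insig1 was lost without the replicate block (adjusted p = 0.142). In glycolysis and hypoxia genes 3 of 27 were lower, with Vegfa at 5316, 5252 and 6065 and 945, 1998 and 875 (log2 fold change -2.20), and the lactate exporter Slc16a3 was higher (log2 fold change 1.34). Of 42 nucleolar and RNA polymerase I genes 3 were lower, led by Polr1b (log2 fold change -1.32), which was lower before induction too. Exosc6 was the only one called among 28 genes of the nuclear RNA exosome and its cofactors (log2 fold change -1.45). Of 77 cytosolic ribosomal protein genes 0 were called, all 77 lay above 0 with a median of 0.32, and 25 had an adjusted p under 0.05 from edgeR. With counts scaled to mitochondrially encoded mRNAs instead, the median of all genes with a mean above 100 moved from -0.07 to -0.43, and the median of the ribosomal protein genes changed sign, as did those of the splicing, elongation, heat shock, endoplasmic reticulum chaperone, replication, histone, extracellular matrix, glycolysis and interferon lists and of the mitochondrial mRNAs themselves. With DESeq2's size factors the medians of the acetyltransferase and Mediator, kinetochore, G2 and mitosis, lamina and neuronal lists, all within 0.1 of 0, turned from below to above 0.

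Extracellular matrix genes were among the few lists with more members higher than lower, 4 of 31 against 1. Tnc (tenascin C) held 329, 369 and 358 in Control and 1728, 2116 and 1767 in Activator (log2 fold change 2.41), and Dcn (decorin) held 5889.9, 5231 and 3226 and 8260.5, 20579 and 11496 (log2 fold change 1.42). Their uninduced levels were 1593, 1339 and 1422 and 3956, 2870.4 and 4088 for Tnc and 18189, 15566 and 10454 and 19610.4, 25683 and 22964 for Dcn, in the Control and the Activator line. The induced Activator levels of Tnc and Dcn thus lay near or under those of uninduced cells, and the induced Control levels were the lowest of the 4 groups. Thbs1 (thrombospondin 1) was lower, at 16422, 8750.5 and 15693 against 30382, 30414 and 37677 (log2 fold change -1.28).

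Some markers of other cell types were higher, from low levels in Control. Of neuronal and synaptic genes 36 were tested and 14 had a mean above 100. Members low in Control could pass that limit only through libraries where they were high. Of these 14, 4 were higher and 1 lower, but the list as a whole did not move one way. Of the 14, 8 lay below 0, with a median of -0.07 on the log2 scale. The summed level of the list overlapped, at 7938 to 7981 normalised counts in Control and 7766 to 8336 in Activator. Grin1, an NMDA receptor subunit, held 1.56, 1.90 and 7.65 in Control and 125, 75.7 and 169 in Activator (log2 fold change 5.22, SE 0.48, adjusted p = 6.42e-10), and Mapt (tau) averaged 79.2 ± 9.0 in Control and 318 ± 103 in Activator (SD, n = 3). Of the blood and endothelial markers Pecam1 and Tek were called higher, and as both were low in Control they passed the limit on the mean through libraries where they were high. The summed level of that whole list, which needs no limit, went from 488 to 574 normalised counts in Control to 1095 to 2186 in Activator. Pecam1, an adhesion molecule of endothelium and platelets, held 8.58, 11.4 and 13.8 and 747, 209 and 757 (log2 fold change 5.63, SE 0.50, adjusted p = 1.37e-09). The summed level of the skeletal muscle list went from 231 to 276 normalised counts in Control to 499.8 to 749 in Activator, with Tnnc2, fast skeletal troponin C, at 224, 88.7 and 206 against 16.4, 11.4 and 9.18 (log2 fold change 3.68). No epithelial or liver marker had a mean above 100, and their summed levels went from 70.3 to 87.2 normalised counts in Control to 128 to 160.1 in Activator and from 9.37 to 23.7 normalised counts in Control to 133 to 169 in Activator. Other defining markers were near 0 in Activator, with means of 4.39 for Cdh5 and 5.27 for Kdr (endothelium), 29.0 for Ptprc (leukocytes) and 9.41 for Myog (muscle), and 2 of 14 blood and endothelial, 3 of 13 muscle, 2 of 12 epithelial and 2 of 12 liver markers had 0 counts in all 6 libraries. The part of other cells in these levels was not tested. Stag3, a meiotic cohesin subunit silenced by DNA methylation in somatic cells, was higher at 144, 102 and 204 against 7.80, 6.65 and 6.12 (log2 fold change 4.41). It was already at 64.9, 59.1 and 82.2 in the uninduced Activator line against 14.4, 10.3 and 13.8. Like Tnnc2, it was low in Control and passed the limit on the mean through libraries where it was high. Of the list written for genes of the 2-cell embryo stage, 23 were tested and only 2, Eif1a and Zfp809, had a mean above 100. Both were lower, and they do not stand for the rest of the list.

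Most snoRNA entries inside genes lay lower, relative to Control, than the genes that hold them.
Box C/D and box H/ACA snoRNAs guide methylation and pseudouridylation of ribosomal RNA, and in mammals most are cut out of introns of host genes.
Of 64 snoRNA entries with a mean above 100, 35 were lower and 0 higher (54.7% against 12.1% of all such genes). Their median log2 fold change was -1.46. At any size, 41 were below 0 with an adjusted p under 0.05 and 3 above 0, counts with no share of all genes beside them. Of the entries with Snord names most were lower, and Snord96a, Snord34, Snord16a and Snord17 were not called. Of those with Snora names, Snora65 and Snora17 were lower, and Snora81, Snora57, Snora52, Snora23, Snora73a, Snora73b and Snora15 were not called.
The snoRNA values came from short entries, and reads of unspliced host RNA over a snoRNA count for it too.
The 3 box C/D snoRNAs that follow are shown because each fell while its host did not, with box C (TGATGA) and box D (CTGA) in capitals as GENCODE M21 gives their transcripts (chr15:80078498-80078591, chr11:62603450-62603521 and chr11:62603079-62603150).
Snord83b: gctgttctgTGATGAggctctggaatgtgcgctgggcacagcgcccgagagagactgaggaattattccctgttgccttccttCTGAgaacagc
Snord49a: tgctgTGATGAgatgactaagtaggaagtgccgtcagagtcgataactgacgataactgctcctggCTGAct
Snord49b: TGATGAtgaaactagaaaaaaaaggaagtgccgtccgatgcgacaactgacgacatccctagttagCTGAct
These exact letters are common in the class, with both boxes found in 25.2% of 1507 snoRNA transcripts, TGATGA in 26.1% and CTGA in 79.5%.
Snord83b held 133, 180.4 and 173 normalised counts in Control and 26.0, 34.6 and 12.7 in Activator (log2 fold change -2.75, SE 0.28, adjusted p = 3.90e-09), while its host Rpl3 had a log2 fold change of 0.06.
Snord49a held 211, 266 and 252 normalised counts in Control and 38.1, 68.2 and 29.6 in Activator (log2 fold change -2.45, SE 0.23, adjusted p = 6.31e-10), and Snord49b held 151, 183 and 145 normalised counts in Control and 34.9, 49.8 and 36.4 in Activator, while their host 2410006H16Rik had -0.15.
The groups did not overlap in any of these 3.
Snora65, in Rpl12, had a log2 fold change of -2.07 against 0.22 for its host.
Gm23130, in Rps12, had -2.24 against 0.47.

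Of the 64 entries 59 lie inside a gene on the same strand. Of these, 32 were lower, 19 of them in hosts that were called lower too and 13 in 10 hosts that were not, and 5 of the 13 lie in hosts of ribosomal proteins. Other entries in such hosts were not called, namely Snord34 in Rpl13a, Snord16a in Rpl4, Snora52 in Rplp2, Gm24523 in Rpl30 and Gm26448 in Rpsa. The snoRNA was below its host in 50 of 59, by a median of -0.75 on the log2 scale, with host medians of -0.12 and snoRNA medians of -1.65. The hosts that fell were noncoding hosts of several snoRNAs. Gas5 averaged 7730.0 normalised counts in Control and 2631 in Activator (log2 fold change -1.57), Snhg1 3996 normalised counts in Control and 1562 in Activator (-1.37) and Zfas1 3113 normalised counts in Control and 915 in Activator (-1.78). Other classes of entries inside genes went different ways. Of 54 sense-intronic transcripts 31 were lower and 3 higher, and of 337 unconfirmed transcripts (biotype TEC) inside a same-strand gene 165 were lower, though 54 of their hosts were. The medians of the difference to the host were -0.52 and -0.71. In contrast, of 102 miRNA entries 4 were lower and 0 higher, and the 70 inside a gene differed from it by a median of 0.01. Processed pseudogenes inside genes lay above their hosts by a median of 0.38, with 1 of 38 lower and 4 higher, and of 5 scaRNA entries inside genes 0 were called, with a median of 0.77 above the host. Under the other scalings and with any library left out, 34 to 38 snoRNA entries were lower and 0 higher.

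**Figure D4:**
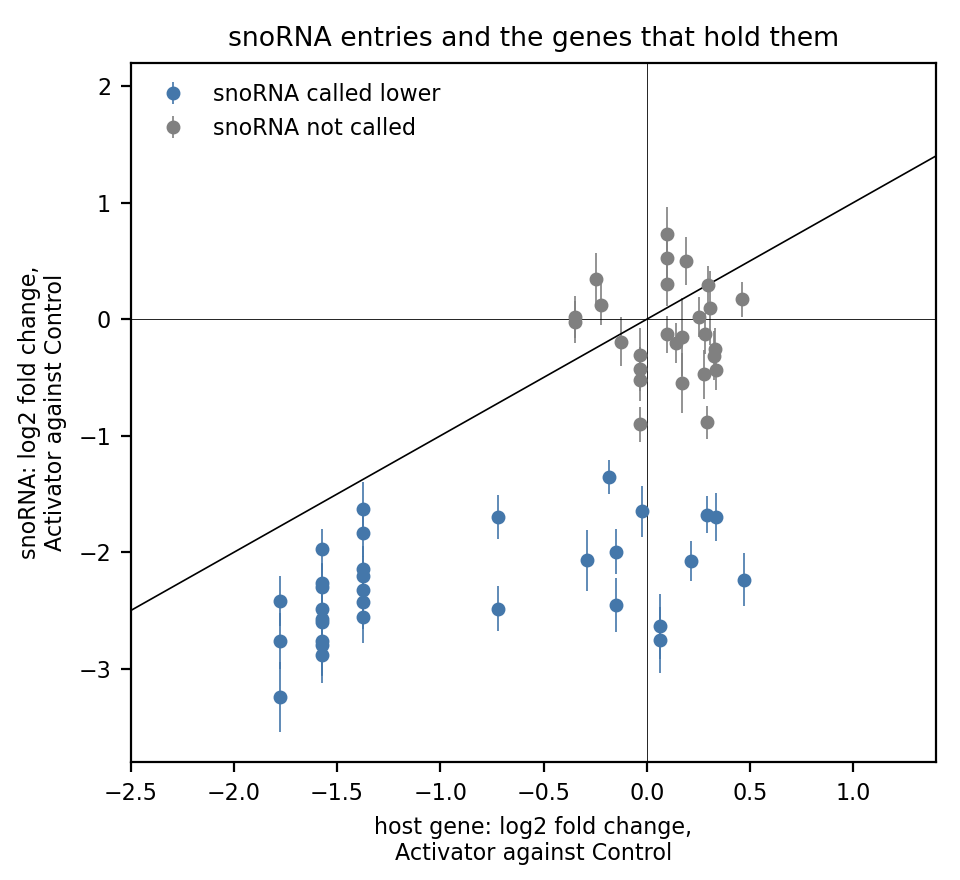
Log2 fold change (Activator over Control, induced) of each of 59 snoRNA entries with its SE, against that of the gene that holds it, with entries called lower in blue and the line of equal change in black. Points called lower lie under the line, those at the left in Gas5, Zfas1 and Snhg1 and 2 more in 1110038B12Rik at -0.72 and those at the right in hosts near 0.

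Gene structure and start sequence differed between the genes that rose and those that fell. The CpG ratio here is the observed over expected frequency of CG in the first 300 bases of the longest GENCODE M21 transcript, for protein-coding genes with a mean above 100. It had a median of 0.445 in the 605 genes called higher, 0.749 in the 1185 called lower and 0.747 in all 11322. The share called higher went from 18.8% of genes with a ratio under 0.2 to 1.99% of those above 1, while the share called lower lay between 10.1% and 11.2% in every bin. Much of this went with the level in Control. Among genes with a Control mean of 100 to 1000, 8.39% of those with a ratio under 0.4 were higher, against 2.96% between 0.4 and 0.8 and 2.91% above 0.8. Above 1000 the shares were 0.284%, 0.184% and 0.21%. Under 100 they were 78.3%, 82.9% and 76.5%, where the limit on the mean over all libraries leaves few genes that did not rise. The genes called lower had fewer exons, with a median of 5 against 8 in all and 9 in genes called higher. Of genes with 2 or 3 exons 19.6% were lower, of those with 8 to 15 exons 8.33%, and of those with 32 or more 3.54%, while 11.7% of the last were higher. Genes within 5 Mb of the start of the chromosome sequence, the centromeric end of mouse chromosomes, were called higher in 11% of cases, against 7.61% from 5 to 10 Mb and 5.72% beyond 80 Mb. Of the 36 genes called higher among 326 in the first of these bins, 9 are of the chromosome 9 satellite stretch and 5 of the Sfi1 stretch. The excess over the next bin rests on these genes. Genes are not independent replicates, so these shares carry no test.

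**Figure D5:**
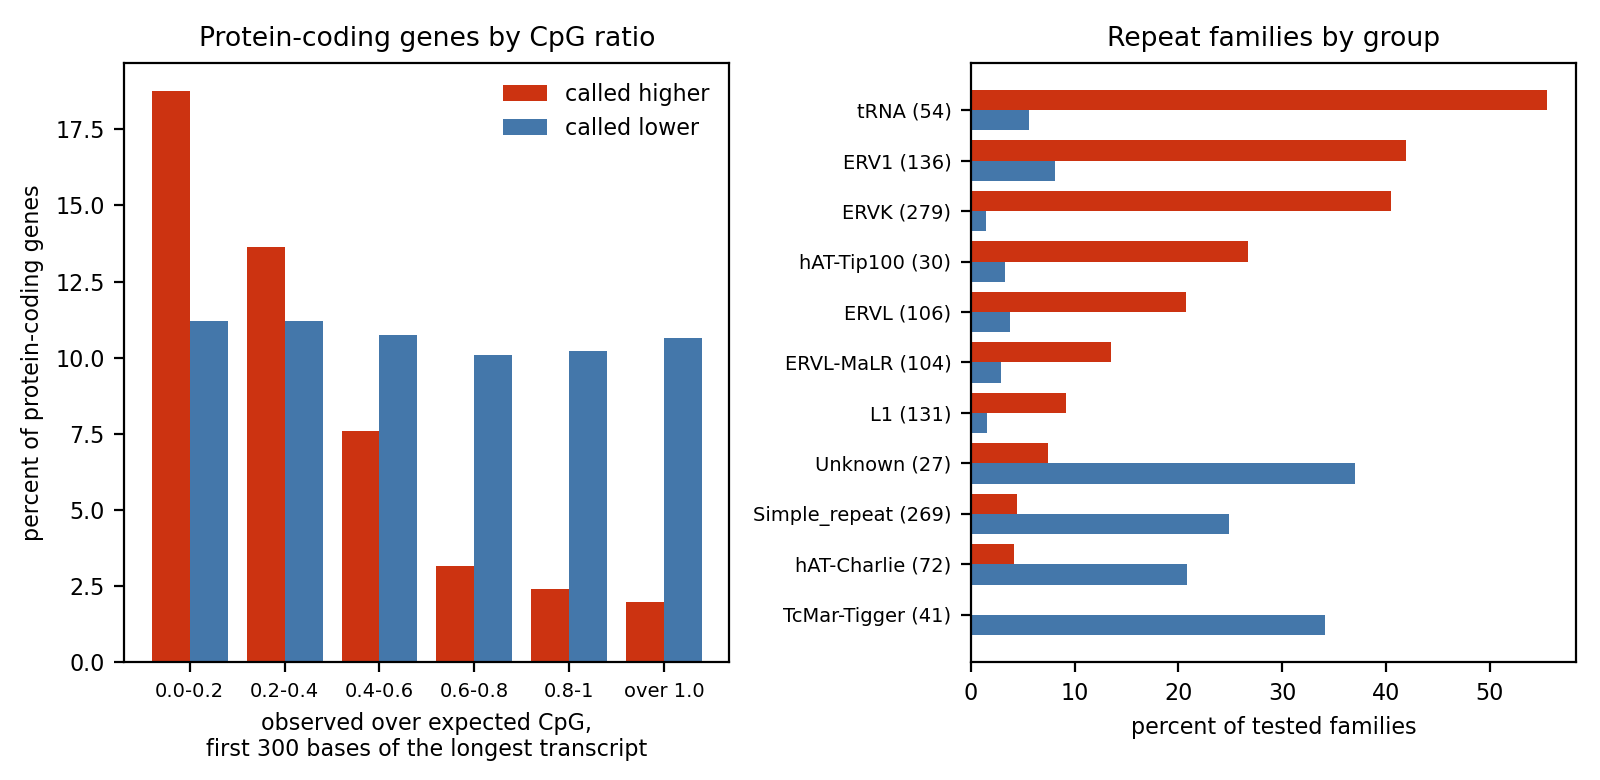
Left, percent of protein-coding genes called higher (red) or lower (blue) in Activator by the CpG ratio of their first 300 bases. Right, the same for repeat families by group (families tested in parentheses). The share of genes called higher was larger at low CpG ratios, and much of this went with the level in Control. ERVK (40.5%), ERV1 (41.9%) and tRNA (55.6%) families were higher more often than all families (20.8%), and ERVL (20.8%) and MaLR (13.5%) were not. All of these groups had more families higher than lower. Under scaling to mitochondrial mRNAs that held for ERVK and tRNA but not for ERV1, ERVL and MaLR.

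Repeat families were called at a limit of 0.5 on the log2 scale, with 304 higher and 168 lower of 1461 (20.8% and 11.5%) and a median of all families of 0.02. This balance depends on the scaling, and on the scale of the mitochondrial mRNAs the median went to -0.39, 99 families being higher and 383 lower. Of the groups described below as having more families higher than lower, ERVK (36 higher, 15 lower), tRNA (8 and 5), Gypsy (2 and 0) and LINE-1 (5 and 18) took these counts under that scaling, ERV1 had 18 of each, ERVL 6 and 10, MaLR 4 of each and hAT-Tip100 2 and 4, and the medians of all of them but tRNA and Gypsy fell below 0. The lower count rested in part on Control replicate 2, without which 110 families were lower. Endogenous retroviruses differed by class. Of ERVK families, which in mouse include the active IAP elements, 113 of 279 were higher and 4 lower (median 0.38), and of ERV1 families 57 of 136 were higher and 11 lower (median 0.40). ERVL families had 22 higher and 4 lower of 106, and the older MaLR families 14 higher and 3 lower of 104. Their shares higher, 20.8% and 13.5%, were no larger than the 20.8% of all families. IAPLTR4_I, an ERVK family, held 22.5, 26.6 and 25.3 normalised counts in Control and 198, 83.9 and 277 in Activator (log2 fold change 2.92, SE 0.30, adjusted p = 4.78e-20). MuRRS-int, an ERV1 family, held 804, 928 and 856 and 4177, 2481 and 5161 (log2 fold change 2.19, SE 0.18, adjusted p = 1.27e-30). Replicate 2 was the lowest Activator library in both, and still above every Control library. HERV16-int of the ERVL group had a log2 fold change of 1.91 (SE 0.21), and LTR88c of the Gypsy? group, with 278, 142 and 317 against 53, 39.4 and 53.7, had 2.34 (SE 0.26). Gypsy families, long inactive in mammals, were higher in 9 of 13 and lower in 0.

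Some members of these groups were lower. MER72B of the ERV1 group held 24.8, 53.7 and 41.2 against 161, 181 and 194 (log2 fold change -2.18, SE 0.25, adjusted p = 8.13e-16), and RMER16A3 of the ERVK group 256, 253 and 287 against 547, 556 and 529 (log2 fold change -1.03). LINE-1 families had 12 higher and 2 lower of 131 (median 0.03), near or under the background. L1M3f was higher, averaging 435 ± 94.3 against 132 ± 42.1 (SD, n = 3, log2 fold change 1.74), and its relative L1M3d was lower, at 196, 182 and 236 against 402, 430.0 and 464 (log2 fold change -1.07). CR1 families, ancient LINEs, were lower in 7 of 15 and higher in 0, with X2_LINE at 64.1, 76.0 and 64.4 against 145, 169 and 202 (log2 fold change -1.33). B2_Mm1a, a SINE transcribed by RNA polymerase III, held 49509, 63456 and 75872 in Control and 113726, 86608 and 107486 in Activator (log2 fold change 0.71, adjusted p = 6.76e-05), with no overlap. Its change on induction did not pass edgeR's test of a difference between the lines (adjusted p = 0.0845). Uninduced Activator replicate 3 held 89821 normalised counts, above induced Activator replicate 2.

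DNA transposons were split by group. TcMar-Tigger families had 14 lower and 0 higher of 41 (median -0.36) and hAT-Charlie 15 lower and 3 higher of 72, whereas hAT-Tip100 had 8 higher and 1 lower of 30. MER127 of the Tigger group held 429.7, 533 and 508 in Control and 193, 256 and 223 in Activator (log2 fold change -1.13), and FordPrefect of the Tip100 group held 367, 495 and 649 and 1043, 964 and 1827 (log2 fold change 1.35, adjusted p = 0.0388), with a wide spread. Simple repeats had 67 lower and 12 higher of 269 (median -0.32), and among them (CAGGG)n was strongly higher, at 2775, 1909 and 4004 against 312, 408 and 447 (log2 fold change 2.90, SE 0.19, adjusted p = 6.05e-50). The tRNA families had 30 higher and 3 lower of 54, with tRNA-Ala-GCY at 228, 119 and 191 against 68.3, 51.2 and 39.5 (log2 fold change 1.73) and tRNA-Ala-GCG in the other direction, at 278, 258 and 271 against 378, 442 and 376 (log2 fold change -0.57). U5, a spliceosomal snRNA family, was lower at 85.4, 77.2 and 72.5 against 137, 234 and 215 (log2 fold change -1.31). A family count has no position, so repeats inside transcribed introns and repeats with their own start cannot be told apart.

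The uninduced libraries separate what the lines already differed in. Before induction 57 genes (0.2% of those tested) and 1 repeat family (0.0684%) differed between the lines, against 2427 and 472 (32.3%) at the end of induction. Of the 784 genes called higher, 38 were called higher before induction as well, and of the 1643 called lower, 5 were called lower. On induction 18 genes changed in the Control line (0.0631%) and 2419 in the Activator line (8.48%). In edgeR's test of the change on induction between lines, 7.67% of genes tested differed (2.2% further up and 5.47% further down in the Activator line), as did 16.4% of families (11.2% and 5.2%). Among them were 602 of the 784 genes called higher, 1399 of the 1643 called lower, 163 of the 304 families called higher and 74 of the 168 called lower. Of the 17 named genes without such a difference, several were at or near 0 counts in 3 of the 4 groups, such as Ikzf1 (adjusted p = 0.136) and Keg1 (adjusted p = 0.0583), where the uninduced libraries give little precision. Hprt, a housekeeping gene, was not called between the induced groups, at 3841, 3679 and 3812 in Control and 4724, 3596 and 4204 in Activator (adjusted p = 0.327), and its values overlapped.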

How the data were processed

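RNA of 6 libraries, 3 biological replicates of each induced line, was compared, and the 36 libraries of the table (12 groups of 3) shared one fit for genes. Paired-end reads were trimmed, mapped to GRCm38 by STAR and assigned by TEtranscripts to genes and families of repeats, and what the authors deposited are these raw counts. Annotation release, strand setting and the sharing of multi-mapped reads are not given in the sources used here. Of the gene IDs 54495 of 54842 matched GENCODE M21. An unnamed entry, 0.00241% to 0.00341% of counts in the induced libraries, was left out.

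R 4.3.3 with edgeR 4.0.16 and limma 3.58.1 was used, with DESeq2 1.42.0 as an alternative. Genes kept by filterByExpr were tested with glmQLFit (robust) and glmQLFTest by group with the replicate number as block, as in the study's model. For repeat families a separate fit of the 12 libraries of both lines before and after induction held the group alone, with library sizes and TMM factors taken from gene counts. P-values were adjusted by Benjamini-Hochberg over all genes or families tested. A standard error (SE) is |log2 fold change| over the square root of the F statistic. Calls of genes needed an adjusted p under 0.05, a log2 fold change beyond 1 and a mean above 100, and calls of families an adjusted p under 0.05 and a log2 fold change beyond 0.5. Before induction, within a line and in the test of a difference between the lines the same limits held. Floors use 3 counts over the Control group, and the interval of Pde7b is an exact 95% counting interval, and both cover counting error only.

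Named were, among called genes whose groups did not overlap, the 10 largest protein-coding rises and falls, the same among genes with at least 2000 counts over the induced libraries, the 3 largest noncoding rises and falls, the largest called rise and fall of each of 40 gene lists, and for each repeat group of at least 5 families the largest called rise and fall with a mean of at least 100. GSAT_MM, SYNREP_MM and Hprt were added. The comparison, the lists and this rule were chosen with earlier results of these data known. Same-numbered induced libraries of the lines correlated in their deviations from the group means by 0.109, 0.0509 and 0.0904 over all tested genes and by 0.239, 0.118 and 0.282 over those with a mean above 100, and the labels do not say what a number shares. A check of CG content over RefSeq promoters of called genes was void, since fewer than 80% matched by symbol, and transcript starts were used instead. In simulated data of 25844 genes, all 200 genes given a change were recovered and 2 others called, and among 1448 families all 200 were recovered and 9 others called. The simulated counts had the same spread for every gene and family and no replicate effects. Changes were of a single size, in members averaging at least 100 counts. The measured Activator replicates departed from Control to unlike degrees, so these recoveries give no error rate for the real data. Alternatives covered other scalings, DESeq2, limits and filters, the replicate block, subtracting the difference before induction, and leaving out each library.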

Additional observations from a re-analysis of the deposited data

Results flagged for a closer look

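The change on induction differed between the Activator and the Control line, by edgeR's test of the difference itself, for 2188 genes (7.67% of those tested), of which 627 went further up and 1561 further down in the Activator line. The same held for 240 repeat families (16.4%), 164 up and 76 down. Of the 78 named genes 61 passed this test, and of the 34 named repeat families 25 did. Among named genes that passed, Tagln rose between the induced groups although its induced Activator level was no higher than in uninduced cells. In all of these the length of induction, with doxycycline and without hygromycin, also differed between the lines, and its part was not tested.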

How the results depend on the processing

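Among 112 named genes and families and 17 settings, 1589 of 1602 comparisons kept the call or its absence, and the direction held for every called name. Hprt, the name that was not called, went to -0.22 under scaling to mitochondrially encoded mRNAs. The other 13 lost it, in B2_Mm1a, Charlie17b, FAM, FordPrefect, Insig1, MER70B, MamTip1 and tRNA-Ala-GCG. Counts moved by over 1.5 times in these cases. Without the limit on the mean, 6313 genes were higher and 3507 lower, and with a log2 limit of 0.5 the numbers were 1576 and 3560. Scaling to mitochondrially encoded mRNAs gave 617 genes higher and 2949 lower, 99 families higher and 383 lower, and, as an alternative chosen after seeing the data, a difference between the lines on induction in 3293 genes and 83 families. A log2 limit of 1 for families gave 144 higher and 47 lower, and the difference less that before induction gave 164 and 76. Leaving out 1 library gave 738 to 836 genes higher and 1476 to 1934 lower, and 239 to 409 families higher and 110 to 241 lower, the 110 without Control replicate 2. Of the 80 counts of gene lists (40 lists, each direction), 26 moved by over 1.5 times under scaling to mitochondrially encoded mRNAs, 13 without Activator replicate 2, 8 without Control replicate 2 and 1 to 6 under each of the other settings. The causes were not tested. DESeq2 called 858 genes higher and 1415 lower, and 333 families higher and 112 lower. Without the replicate block 771 genes were higher and 1561 lower, and 1878 differed between the lines on induction. With the replicate block 301 families were higher and 168 lower, and 287 differed on induction. Over genes with a mean above 100 each induced library correlated best with the other line's library of its own number, a hint from the data and not from the design. Depth limits genes at or near 0 counts in Control, whose folds are lower bounds.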
